A study of Mus musculus with 18 samples.

Results

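The voltage-gated calcium channel subunits described here are 7 genes, taken by symbol from a table of 24341 genes measured in mouse heart. They are the L-type pore genes Cacna1c and Cacna1d, the T-type pore genes Cacna1g and Cacna1h, and the accessory genes Cacna2d1, Cacnb2 and Cacnb3. All 7 symbols had a row. Levels are in FPKM, a unit that scales reads by transcript length and library size, and 6 of the 7 genes reached 1 FPKM in at least 3 of the 18 libraries. Those 6 were tested among 12589 genes, and Cacna1d, which stayed under 1 FPKM in every library, was not.

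The study asks how thyroid hormone and Med13, a subunit of the Mediator complex that links transcription factors to RNA polymerase, act on transcription in the heart. Hearts of C57BL/6 mice, all given as 12 weeks old, form 6 groups of 3 libraries. Med13 cKO mice, labelled as cardiac-specific knockouts, and wild-type (WT) mice each received PTU plus T3, PTU alone or normal chow. Propylthiouracil (PTU) stops the thyroid from making hormone, and T3 is the active hormone. Feeding began at 8 weeks of age and went on for 4 weeks, and in the T3 arm 3 once-daily T3 injections came after it. The labels name no Cre driver, do not say that each library is a separate animal, and give the tissue only as heart. P-values therefore measure the spread between these samples, which may be technical in part.

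In a working heart muscle cell, the L-type channel opens when the membrane depolarises, and the calcium that enters triggers release of stored calcium and contraction. A pore subunit makes the channel, while a beta subunit inside the cell and an extracellular alpha-delta subunit help it reach the membrane and set its gating. T-type channels open at more negative voltages and are known from pacemaker, atrial and embryonic heart cells. In bulk tissue, fewer cells of a type and less RNA per cell cannot be told apart.

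The genotype labels were checked first with Med13 itself. Its level averaged 6.25 ± 0.723 FPKM in cKO and 5.73 ± 0.509 FPKM in WT hearts on PTU plus T3, 5.34 ± 0.618 FPKM in cKO and 6.36 ± 0.716 FPKM in WT hearts on PTU, and 5.90 ± 0.702 FPKM in cKO and 5.52 ± 0.283 FPKM in WT hearts on chow (SD, n = 3 each). The gene total did not separate the genotypes, exons were not analysed here, and every direction between genotypes rests on the labels. Exons of Brip1os on the other strand overlap Med13. All 7 ventricular muscle markers were detected, with Myl2 between 11801 and 31661 FPKM. Atrial markers differed widely between libraries, and Myl7, the atrial myosin light chain, ranged from 14.02 to 1075 FPKM. Results were therefore also computed without the library highest in atrial genes in each group, by the summed log2(FPKM + 1) of 5 atrial markers. By their summed FPKM, another library would be highest in cKO PTU, cKO chow and WT PTU plus T3.

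Promoter sequence is shown for Cacna1c and Cacna2d1, the members with the largest called changes. Each window is the 250 bases before a RefSeq transcript start on GRCm38.p6, and capitals mark the GC box GGGCGG on either strand. Cacna1c has 3 annotated starts with a window, and the 2 most upstream are printed. Cacna1c at its upstream start is chr6:119196410-119196659 on the minus strand, Cacna1c at its next start is chr6:119108496-119108745 on the minus strand, and Cacna2d1 is chr5:15934441-15934690 on the plus strand.
Cacna1c upstream start: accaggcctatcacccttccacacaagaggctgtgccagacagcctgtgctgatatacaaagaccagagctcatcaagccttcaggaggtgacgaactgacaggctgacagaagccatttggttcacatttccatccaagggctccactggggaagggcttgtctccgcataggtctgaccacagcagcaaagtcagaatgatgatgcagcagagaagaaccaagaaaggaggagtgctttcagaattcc
Cacna1c next start: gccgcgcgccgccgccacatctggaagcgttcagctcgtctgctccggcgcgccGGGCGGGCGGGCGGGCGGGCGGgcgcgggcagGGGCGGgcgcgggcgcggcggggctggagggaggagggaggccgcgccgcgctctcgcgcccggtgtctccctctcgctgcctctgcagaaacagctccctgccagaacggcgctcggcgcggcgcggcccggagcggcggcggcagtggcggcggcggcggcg
Cacna2d1 start: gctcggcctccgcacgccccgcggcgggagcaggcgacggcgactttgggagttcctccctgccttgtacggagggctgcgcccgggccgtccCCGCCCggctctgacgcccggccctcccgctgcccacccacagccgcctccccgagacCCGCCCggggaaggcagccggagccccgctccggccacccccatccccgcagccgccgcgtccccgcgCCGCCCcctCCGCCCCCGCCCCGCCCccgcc

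The upstream Cacna1c window was 51.6% G and C and held no GC box. The next Cacna1c window was 82.8% G and C with 6 matches, neighbouring ones overlapping, and the Cacna2d1 window was 82.4% G and C with 6 matches. The median over 32851 RefSeq windows of the same length was 52.4%. Over both strands, 5 of 10 windows of 5 members held a GC box, against 32.7% of all windows. The core motif of thyroid hormone receptor sites, AGGTCA, was in 0 of the 10 windows and in 14.02% of all windows. Its direct repeat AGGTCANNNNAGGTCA, which contains that core, was in 0 of the 10 and in 0.0152% of all. TATAAA was in 1 of the 10, a Cacna1d window, and in 12.4% of all. These letter matches describe the windows only.

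Cacna1c encodes the main L-type pore of heart muscle and lies at chr6:118587240-119196418 on the minus strand. It was lowest with T3, intermediate on chow and highest on PTU, in both genotypes. With PTU plus T3 it stood at 15.9, 13.6 and 17.1 FPKM in cKO hearts and at 17.97, 15.1 and 13.9 FPKM in WT hearts. On PTU it stood at 41.2, 36.7 and 36.5 FPKM in cKO hearts and at 44.0, 38.3 and 47.3 FPKM in WT hearts. On chow it stood at 28.7, 27.8 and 27.9 FPKM in cKO hearts and at 29.8, 27.7 and 23.1 FPKM in WT hearts. No library of one treatment reached the range of another, whereas cKO and WT overlapped within each treatment.

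Changes are given as log2 fold changes of FPKM + 1, which understate the change of low genes, and a gene is called at an adjusted p under 0.05 from limma. Cacna1c changed most for T3 against PTU, with a log2 fold change of -1.25 in cKO hearts (SE 0.113, adjusted p = 4.69e-07) and of -1.41 in WT hearts (SE 0.113, adjusted p = 1.82e-07). Against chow, the log2 fold change with T3 was -0.82 in cKO hearts (adjusted p = 0.000157) and -0.74 in WT hearts (adjusted p = 0.000746). PTU raised Cacna1c over chow by 0.42 in cKO hearts (SE 0.113, adjusted p = 0.0190) and by 0.67 in WT hearts (SE 0.113, adjusted p = 0.000960). The cKO call ended without cKO PTU replicate 1 (adjusted p = 0.0787), without cKO chow replicate 1 (0.0544) or replicate 2 (0.0563), and without the atrial-highest libraries (0.0662). Comparisons with a shared control group are not independent of each other.

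**Figure D1:**
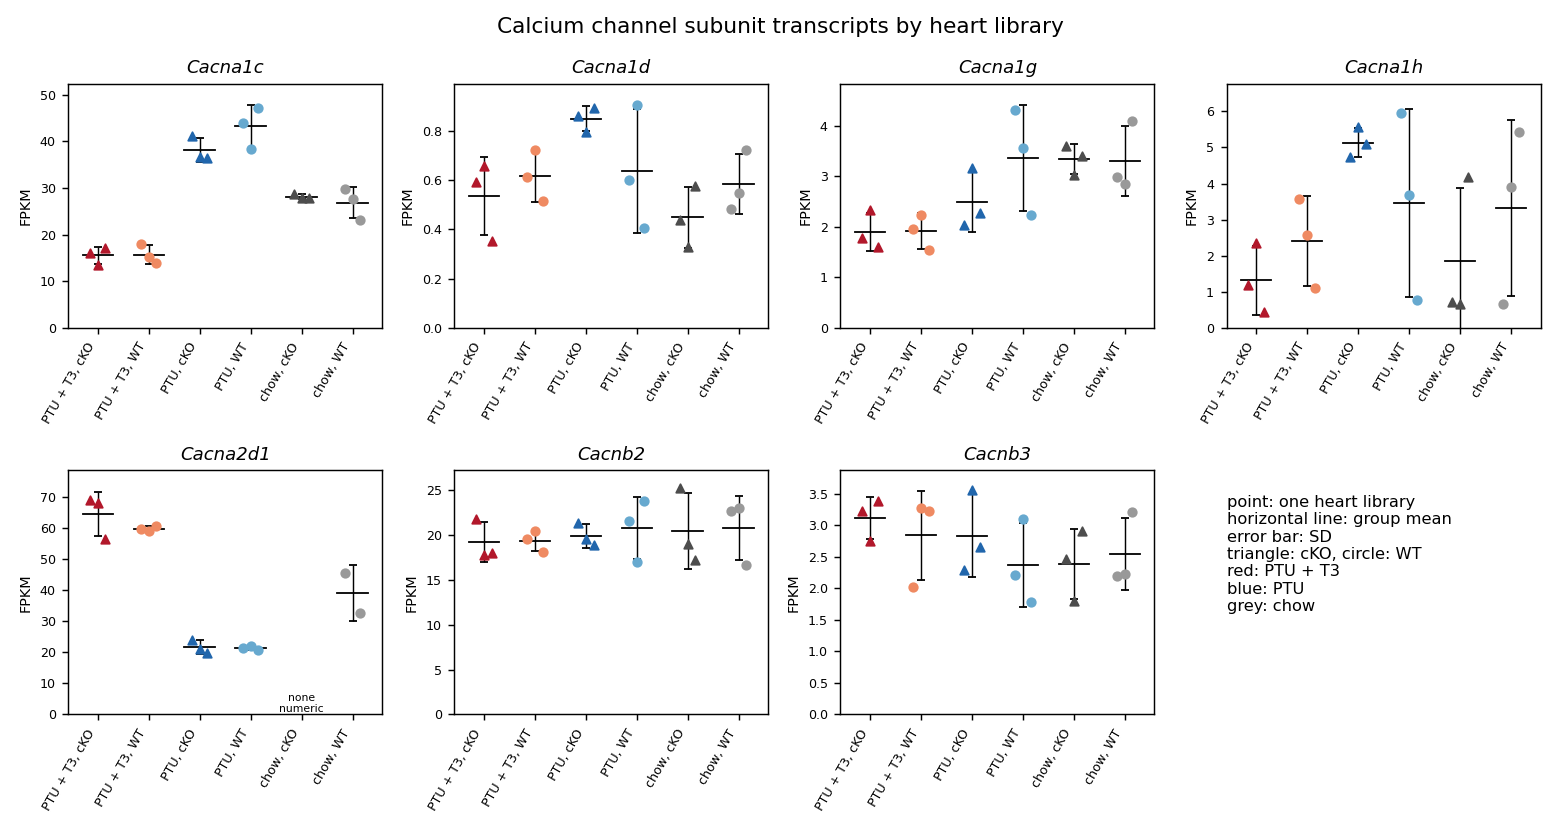
Level of each channel subunit gene in FPKM (vertical axis, from 0) in the 6 groups, with points for libraries, horizontal lines for group means and bars for the SD. Cacna1c is lowest and Cacna2d1 highest with T3, Cacnb2 stays between 16.7 and 25.2 FPKM throughout, and Cacna1h scatters widely inside most groups (the SD bar of chow cKO is clipped at 0).

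Cacna2d1, the alpha-delta accessory gene at chr5:15934691-16374511 on the plus strand, ran the other way. With PTU plus T3 its level was 69.0, 68.1 and 56.4 FPKM in cKO hearts and 59.7, 59.0 and 60.8 FPKM in WT hearts. On PTU its level was 24.1, 21.0 and 19.7 FPKM in cKO hearts and 21.3, 21.98 and 20.8 FPKM in WT hearts. Every library with T3 was above every numeric chow library, and every PTU library was below them. On chow the deposited cell reads FAIL in 4 of 6 libraries, all 3 of cKO and replicate 2 of WT, which leaves 45.4 and 32.6 FPKM in WT hearts. In the authors' deposited table for genotypes on chow, Cacna2d1 is also marked FAIL, with group values of 36.3 FPKM in cKO and 39.4 FPKM in WT.

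T3 raised Cacna2d1 over PTU by a log2 fold change of 1.53 in cKO hearts (SE 0.117, adjusted p = 4.94e-07) and 1.44 in WT hearts (SE 0.117, adjusted p = 8.84e-07). Against the pair of numeric WT chow libraries, it fell by 0.82 on PTU (SE 0.131, adjusted p = 0.00114), and it rose by 0.62 with PTU plus T3 (SE 0.131, adjusted p = 0.00819). That last call ended without WT chow replicate 3 (0.39, adjusted p = 0.0834), which leaves 1 numeric chow library assumed to vary like the other groups, without the atrial-highest libraries (0.39, adjusted p = 0.173), and in a fit of the compared groups alone (adjusted p = 0.0521). No value against cKO chow could be fitted. The authors' deposited tables for WT hearts give Cacna2d1 group values of 59.9 FPKM with T3 against 21.4 FPKM on PTU (q = 0.00034) and of 21.6 FPKM on PTU against 40.1 FPKM on chow (q = 0.000771).

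**Figure D2:**
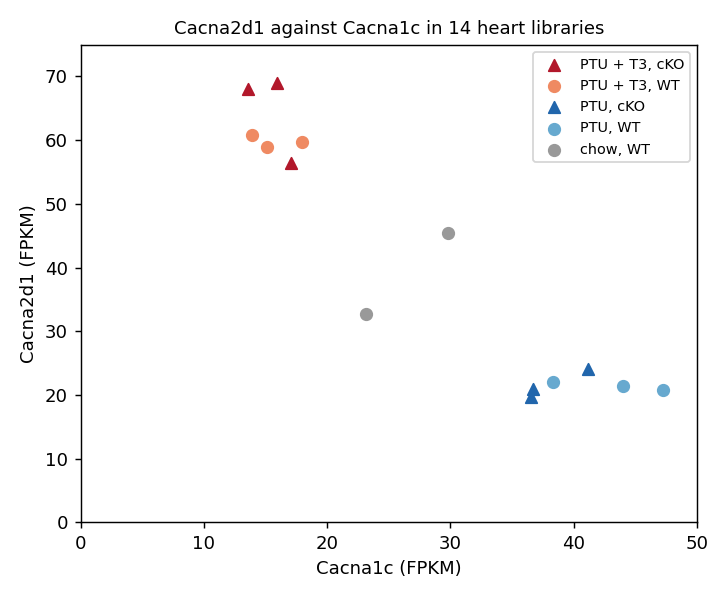
Cacna2d1 level against Cacna1c level, both in FPKM and both axes from 0, in the 14 libraries with a number for Cacna2d1, 1 point per library. The 6 libraries with T3 sit at high Cacna2d1 and low Cacna1c, the 6 PTU libraries at the opposite corner, and 2 WT chow libraries between them.

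The proportion of these transcripts differed between treatments. Cacna2d1 FPKM divided by Cacna1c FPKM averaged 4.22 ± 0.865 in cKO and 3.86 ± 0.524 in WT hearts with T3, and 0.565 ± 0.0232 in cKO and 0.499 ± 0.0681 in WT hearts on PTU (SD, n = 3 each). The WT chow libraries with a number gave 1.41 and 1.52. The T3 libraries, from 3.30 to 5.02, lay above the chow values, and the PTU libraries, from 0.439 to 0.585, lay below them.

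Cacnb2 encodes the main beta subunit of the heart muscle L-type channel and lies at chr2:14603088-14987908 on the plus strand. It was not called in any of the 12 comparisons. Its mean was 19.2 ± 2.24 FPKM in cKO and 19.4 ± 1.20 FPKM in WT hearts with T3, 19.9 ± 1.30 FPKM in cKO and 20.8 ± 3.45 FPKM in WT hearts on PTU, and 20.5 ± 4.22 FPKM in cKO and 20.8 ± 3.56 FPKM in WT hearts on chow (SD, n = 3 each). All treatment groups overlapped. For T3 against PTU, the log2 fold change was -0.05 in cKO hearts (95% confidence interval -0.37 to 0.26) and -0.08 in WT hearts (-0.40 to 0.23). Unlisted antisense and pseudogene exons lie opposite Cacnb2, and their reads cannot be told apart from it. Because Cacna1c moved and Cacnb2 was not called, Cacnb2 FPKM over Cacna1c FPKM was 1.24 ± 0.166 in cKO and 1.247 ± 0.141 in WT hearts with T3, 0.522 ± 0.00784 in cKO and 0.478 ± 0.0310 in WT hearts on PTU, and 0.726 ± 0.137 in cKO and 0.771 ± 0.0559 in WT hearts on chow.

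Cacnb3, a beta subunit also known from smooth muscle and nerve, lies at chr15:98630840-98644529 on the plus strand. It ranged from 1.79 to 3.56 FPKM over the 18 libraries and was not called in any comparison. Group means were 3.12 ± 0.334 FPKM in cKO and 2.84 ± 0.706 FPKM in WT hearts with T3, 2.84 ± 0.653 FPKM in cKO and 2.37 ± 0.667 FPKM in WT hearts on PTU, and 2.39 ± 0.556 FPKM in cKO and 2.54 ± 0.575 FPKM in WT hearts on chow. Its largest fitted change was 0.29 for T3 against chow in cKO hearts (95% confidence interval -0.09 to 0.68).

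Cacna1g encodes a T-type pore and lies at chr11:94408391-94474198 on the minus strand. Its level was 1.78, 2.32 and 1.60 FPKM in cKO and 1.96, 2.24 and 1.55 FPKM in WT hearts with T3. On PTU it was 2.04, 3.15 and 2.27 FPKM in cKO and 4.30, 3.56 and 2.23 FPKM in WT hearts. On chow it was 3.61, 3.02 and 3.41 FPKM in cKO and 2.98, 2.83 and 4.10 FPKM in WT hearts. The T3 libraries were all below the chow libraries of their genotype, while WT T3 and WT PTU overlapped, since 1 PTU library at 2.23 FPKM was just below 1 T3 library at 2.24 FPKM.

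Cacna1g had a log2 fold change of -0.56 for T3 against PTU in WT hearts (SE 0.176, adjusted p = 0.0168). The change of -0.26 in cKO hearts was not called (SE 0.176, adjusted p = 0.239), and the difference between genotypes was 0.30 (SE 0.248, adjusted p = 0.730). Against chow, its log2 fold change with T3 was -0.59 in cKO (adjusted p = 0.0253) and -0.56 in WT (adjusted p = 0.0435). PTU against chow gave -0.33 in cKO (adjusted p = 0.220) and 0.00 in WT (adjusted p = 0.995). These calls lay near the threshold. The WT call against PTU ended without WT PTU plus T3 replicate 3 (adjusted p = 0.0723), WT PTU replicate 1 (0.0936) or replicate 2 (0.0547), without the atrial-highest libraries (-0.42, 0.142), and in a fit of the compared groups alone (0.0504). The cKO call against chow ended without cKO PTU plus T3 replicate 1 (0.0753) or 3 (0.0896), or cKO chow replicate 1 (0.0760) or 3 (0.0722), and without the atrial-highest libraries (0.0560). The WT call against chow ended under 10 of 13 alternatives, among them without each of the 6 libraries in turn, with an adjusted p of up to 0.211. The authors' deposited tables mark Cacna1g as lower with T3 in WT hearts, at 1.92 FPKM with T3 against 3.37 FPKM on PTU (q = 0.00034) and 3.32 FPKM on chow (q = 0.00109).

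Cacna1h, the other T-type pore gene of the set, lies at chr17:25374285-25433783 on the minus strand and varied widely inside most groups. Its level was 1.18, 2.34 and 0.431 FPKM in cKO and 3.57, 2.57 and 1.09 FPKM in WT hearts with T3. On PTU it was 4.75, 5.56 and 5.09 FPKM in cKO and 5.96, 3.69 and 0.754 FPKM in WT hearts. On chow it was 0.708, 0.666 and 4.19 FPKM in cKO and 0.651, 3.89 and 5.43 FPKM in WT hearts. Only the cKO PTU libraries lay close together, above both other cKO groups, and 5 libraries in 4 groups were under 1 FPKM. Exons of Tpsg1 overlap it on the other strand, and Tpsg1 was listed at the floor of 0.01 FPKM in 15 of 18 libraries and reached 0.236 FPKM at most.

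The limma fit called Cacna1h in no comparison, with a SE of 0.599 for each pairwise change. T3 against PTU gave -1.49 in cKO hearts (95% confidence interval -2.77 to -0.20, adjusted p = 0.0552) and -0.25 in WT hearts (-1.53 to 1.04, adjusted p = 0.763). PTU against chow gave 1.32 in cKO (0.03 to 2.60, adjusted p = 0.151) and 0.05 in WT (-1.24 to 1.33, adjusted p = 0.969). The T3 change in cKO hearts was called in a fit of the compared groups alone (adjusted p = 0.00513), with a constant prior for the spread (0.0436), and without cKO PTU plus T3 replicate 2 (0.0478). The authors' deposited tables mark Cacna1h as significant between genotypes on chow, at 1.85 FPKM in cKO and 3.32 FPKM in WT (q = 0.00987), and on PTU plus T3, at 1.26 FPKM in cKO and 2.34 FPKM in WT (q = 0.00736). They also mark it, in the authors' deposited table for WT hearts, as lower with T3 at 2.41 FPKM than on PTU at 3.47 FPKM (q = 0.0188). The genotype values average libraries that overlap between genotypes, and the limma adjusted p was 0.999 on chow and 0.979 on PTU plus T3.

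The T-type genes were set beside the atrial markers Myl7, Myl4, Nppa, Sln and Bmp10, since T-type channels are known from atrial cells. All 5 markers were tested, and 0 of 5 were called in any comparison. Over all tested genes, 16.0% in cKO and 16.8% in WT hearts were called for PTU against chow. There the median log2 change of the markers was 1.45 in cKO and 1.43 in WT hearts, beside 0.00 over all tested genes. For T3 against PTU, where 46.7% and 44.1% of all tested genes were called, the 5 markers had a median of -0.77 in cKO and -0.52 in WT hearts. Their summed log2(FPKM + 1) ranged from 18.05 to 39.5 in cKO and 24.4 to 37.5 in WT hearts with T3, from 25.7 to 42.2 in cKO and 22.3 to 46.9 in WT hearts on PTU, and from 24.1 to 28.1 in cKO and 22.4 to 34.8 in WT hearts on chow. Bmp10 was at the floor in 10 of 18 libraries. The library with the highest atrial sum of its group also had the highest Cacna1h in 4 of 6 groups and the highest Cacna1g in 3 of 6. The same count was 3 of 6 for Cacna1d and for Med13, 1 of 6 for Cacna1c and for Cacnb3, and 0 of 6 for Cacnb2. For Cacna2d1 it was 0 of the 4 groups with 3 numeric libraries. With 3 libraries a group, some such matches arise by chance. The part of atrial tissue in the T-type results was not tested.

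**Figure D3:**
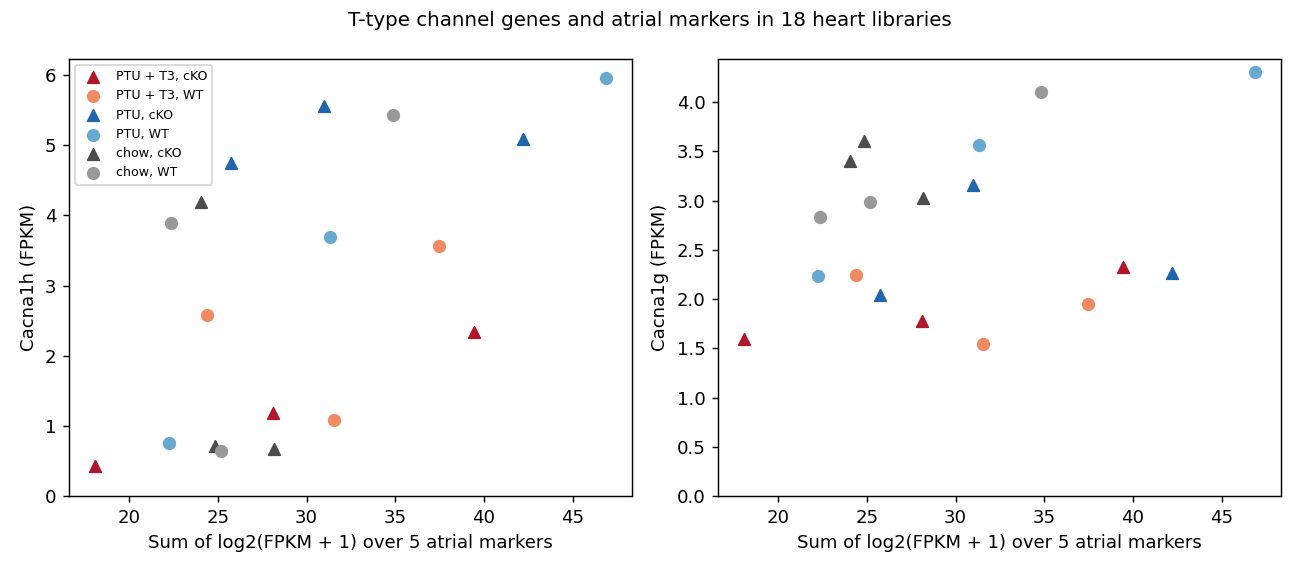
Cacna1h (left) and Cacna1g (right) in FPKM against the summed log2(FPKM + 1) of 5 atrial markers in 18 libraries, 1 point per library, coloured by treatment and shaped by genotype. WT PTU replicate 1 has the highest atrial sum, 46.9, and the highest level of both genes, while Cacna1h runs from 0.651 to 4.19 FPKM among libraries with sums near 24 to 25.

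Cacna1d encodes the L-type pore known from the sinoatrial node and atria and lies at chr14:30039939-30491455 on the minus strand. It ranged from 0.328 to 0.908 FPKM, and exons of Chdh overlap it on the other strand. Group means were not tested in the main fit because it failed the filter on low values. On PTU its level was 0.861, 0.796 and 0.896 FPKM in cKO hearts, above the cKO libraries with T3 (0.595, 0.659 and 0.355 FPKM) and on chow (0.439, 0.328 and 0.578 FPKM). In WT hearts the groups overlapped. Without the filter, PTU against chow in cKO gave 0.36 (SE 0.113, adjusted p = 0.0628), T3 against PTU in cKO gave -0.27 (SE 0.113, adjusted p = 0.0803), and no comparison was called. The authors' deposited tables list it as not tested.

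The members' calls are given beside the share of all tested genes that was called in the same comparison. For T3 against PTU, 2 of 6 tested members were called in cKO hearts (1 higher, 1 lower). In WT hearts it was 3 of 6 (1 higher, 2 lower). Over all tested genes the share was 46.7% in cKO hearts (24.9% higher, 21.8% lower) and 44.1% in WT hearts (22.3% higher, 21.8% lower). For PTU against chow, 1 of 5 was called in cKO hearts, as higher (background 16.0%, with 6.43% higher and 9.59% lower). In WT hearts 2 of 6 were called, 1 higher and 1 lower (background 16.8%, with 8.01% higher and 8.77% lower). For PTU plus T3 against chow, 2 of 5 were called in cKO hearts (background 20.9%, with 11.7% higher and 9.16% lower) and 3 of 6 in WT hearts (background 14.7%, with 7.69% higher). The median log2 change of the tested members was -0.16 in cKO and -0.17 in WT hearts for T3 against PTU, beside 0.00 in both over all tested genes. 

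Groups without overlap were counted over all members with a number, Cacna1d included. The shares beside them cover tested genes with a number in all 3 libraries of both groups. Cacna2d1 has only 2 numeric WT chow libraries, so its groups separate more easily by chance. It is among the members apart in both WT comparisons with chow. For T3 against PTU, 4 of 7 members did not overlap in cKO and 2 of 7 in WT hearts, against 55.4% and 50.7% of all tested genes. For PTU against chow, it was 3 of 6 in cKO and 2 of 7 in WT hearts, against 32.4% and 35.6%. For PTU plus T3 against chow, it was 2 of 6 in cKO and 3 of 7 in WT hearts, against 41.7% and 31.4%. Between genotypes, 0 members were apart on chow, on PTU or on PTU plus T3, where 8.51%, 7.52% and 8.54% of all genes were.

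In the authors' deposited tables for WT hearts, 4 of 6 tested members are marked significant for T3 against PTU, beside 35.6% of all tested genes, 2 of 6 for PTU against chow, beside 16.8%, and 3 of 6 for PTU plus T3 against chow, beside 12.4%. Between genotypes the authors' deposited tables mark 1 of 5 on chow and 1 of 6 on PTU plus T3, in both cases Cacna1h, and 0 of 6 on PTU, beside 0.664%, 0.991% and 0.950% of all tested genes.

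Between genotypes, 0 of 5 members on chow (background 0%), 0 of 6 on PTU (0%) and 0 of 6 on PTU plus T3 (0%) were called by limma, and 0 members had an unadjusted p under 0.05. Over all tested genes limma called 0 as well, with 394 genes on chow, 491 on PTU and 434 on PTU plus T3 at an unadjusted p under 0.05. Averaged over treatments, the cKO minus WT log2 difference of Cacna1c was -0.04 (95% confidence interval -0.18 to 0.10). That of Cacnb2 was -0.03 (-0.21 to 0.15), and that of Cacna1h was -0.17 (-0.91 to 0.57). The PTU response of Cacna1c differed between genotypes by -0.24 (-0.58 to 0.09, adjusted p = 0.803) and its T3 response by 0.16 (-0.18 to 0.50, adjusted p = 0.767). The T3 response of Cacna2d1 differed by 0.09 (-0.27 to 0.45, adjusted p = 0.881). In both tests of a response by genotype, 0 members and 0 genes were called (background 0%), with 805 genes for PTU and 821 for T3 at an unadjusted p under 0.05.

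**Figure D4:**
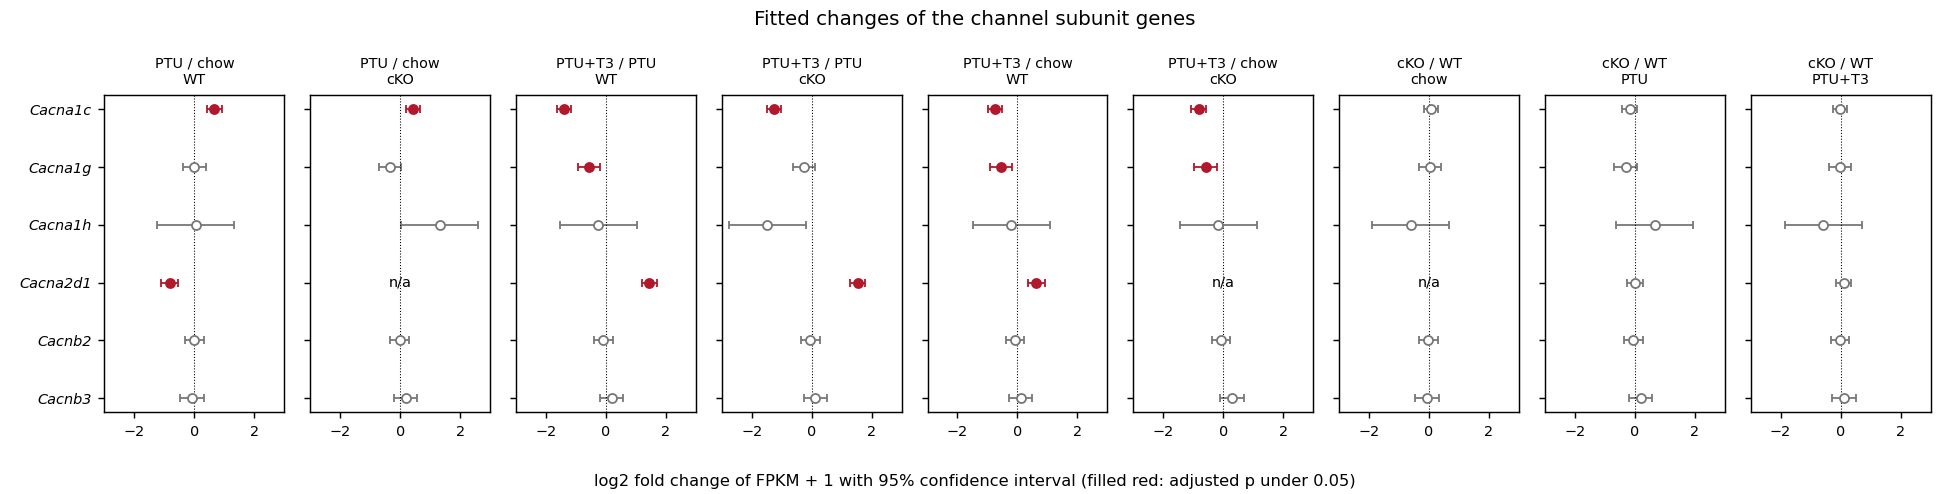
Fitted log2 fold change of FPKM + 1 with its 95% confidence interval for the 6 tested members (rows) in 9 comparisons (panels), with filled red points for an adjusted p under 0.05. Cacna1c and Cacna2d1 lie on opposite sides of 0 in the hormone comparisons, Cacna1h has the widest intervals, and the genotype panels hold no filled point (n/a marks a group with no number).

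The pore genes together were also summed per library, over the 10 pore genes of the family. Because FPKM is scaled by length, levels of different genes can be added. The sum was 22.1 ± 0.355 FPKM in cKO and 23.2 ± 3.88 FPKM in WT hearts with T3, 51.1 ± 2.16 FPKM in cKO and 56.3 ± 4.65 FPKM in WT hearts on PTU, and 36.9 ± 1.31 FPKM in cKO and 36.5 ± 0.981 FPKM in WT hearts on chow. Cacna1c made up 62.3% to 82.3% of it, with a mean of 73.2%, the T-type genes 5.20% to 26.9%, and Cacna1d 0.709% to 3.12%. The treatments did not overlap in the sum but did in the share of Cacna1c. Among beta genes, Cacnb2 held 55.2% to 78.0% of the summed FPKM.

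**Figure D5:**
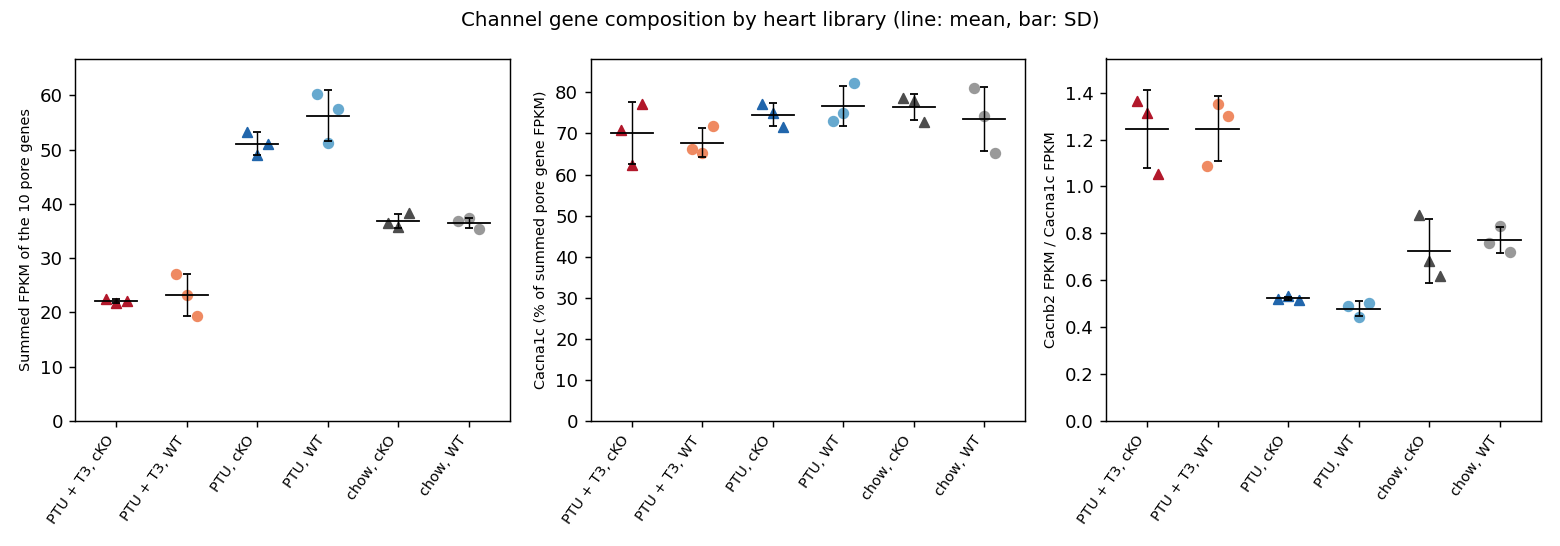
Per library, the summed FPKM of the 10 pore genes, the percentage of it held by Cacna1c, and Cacnb2 FPKM over Cacna1c FPKM, for the 6 groups, with lines for means and bars for the SD. The sum and the ratio separate the treatments in opposite orders, and the Cacna1c share overlaps between 62.3% and 82.3%.

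Of 19 other genes of the channel family, 5 passed the filter on low values. Cacna1s, the pore of the skeletal muscle L-type channel, was, like Cacna1c, lower with T3 than on PTU. It averaged 1.57 FPKM in cKO and 1.30 FPKM in WT hearts with T3, 3.82 FPKM in cKO and 5.16 FPKM in WT hearts on PTU, and 2.37 FPKM in cKO and 1.45 FPKM in WT hearts on chow. Its log2 fold change for T3 against PTU was -0.83 in cKO (SE 0.284, adjusted p = 0.0255) and -1.41 in WT hearts (SE 0.284, adjusted p = 0.000921), and on PTU it rose over chow by 1.35 in WT hearts (SE 0.284, adjusted p = 0.00474). The cKO call of Cacna1s ended without cKO PTU plus T3 replicate 3 (adjusted p = 0.0875), cKO PTU replicate 1 (0.0745) or replicate 3 (0.132), without the atrial-highest libraries (0.113), and in a fit of the compared groups alone (0.0605). In cKO hearts the change on PTU was 0.48 (adjusted p = 0.276). For T3 against chow Cacna1s was not called, at -0.35 in cKO (adjusted p = 0.421) and -0.06 in WT hearts (adjusted p = 0.917). Of 5 skeletal muscle markers, Cacna1s itself among them, 2 were tested. Their summed level was 1.65 to 3.49 FPKM in cKO and 2.24 to 7.66 FPKM in WT hearts with T3, 3.20 to 6.21 FPKM in cKO and 4.87 to 6.65 FPKM in WT hearts on PTU, and 2.56 to 3.96 FPKM in cKO and 1.56 to 2.44 FPKM in WT hearts on chow. The skeletal myosin Myh4 was at the floor in all 18 libraries. Tnnt3, the other tested marker, was called higher for T3 against PTU in WT hearts, opposite to Cacna1s, and was not called in cKO hearts. The summed level includes Cacna1s and is not independent of it, and the part of skeletal muscle in the Cacna1s result was not tested.

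Cacnb1, the beta subunit of the skeletal muscle channel, averaged 3.31 FPKM in cKO and 3.34 FPKM in WT hearts with T3, 10.1 FPKM in cKO and 7.24 FPKM in WT hearts on PTU, and 7.01 FPKM in cKO and 6.71 FPKM in WT hearts on chow. T3 against PTU gave a log2 fold change of -1.36 in cKO (SE 0.212, adjusted p = 8.97e-05) and -0.92 in WT hearts (SE 0.212, adjusted p = 0.00244). For T3 against chow it was -0.83 in cKO (adjusted p = 0.0117) and -0.82 in WT (adjusted p = 0.0178). The calls of Cacnb1 against chow ended without the atrial-highest libraries, in WT hearts also without WT PTU plus T3 replicate 3 or WT chow replicate 1 or 3, and in cKO hearts without cKO chow replicate 3, at adjusted p values of up to 0.149. Cacna1a, a pore known from nerve terminals, was higher with T3 than on PTU by 0.52 in cKO (adjusted p = 0.0123) and 0.64 in WT (adjusted p = 0.00362), at 1.35 FPKM or less in every library. Its cKO call ended without cKO PTU replicate 1 (adjusted p = 0.0578) and without the atrial-highest libraries (0.0726). Cacna2d2, an accessory gene related to Cacna2d1, and Cacng7, of the gamma family, were not called, and Cacna2d2 changed by 0.42 in cKO (adjusted p = 0.154) and 0.05 in WT (adjusted p = 0.889) for T3 against PTU. Over these 5 genes, 1 rose and 2 fell for T3 against PTU in each genotype, where 46.7% of all tested genes were called in cKO and 44.1% in WT hearts.

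Genes that regulate the channel were counted over a list of 24, of which 18 were tested. For T3 against PTU, 4 rose and 6 fell in cKO hearts, and 5 rose and 5 fell in WT hearts, where 46.7% and 44.1% of all tested genes were called. For PTU against chow, 2 rose and 1 fell in cKO hearts, and 1 rose and 3 fell in WT hearts, beside 16.0% and 16.8% of all tested genes. The list's median log2 change for T3 against PTU was -0.17 in both genotypes, beside 0.00 over all tested genes.

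Rrad encodes a small GTPase that inhibits the L-type channel through its beta subunit. It averaged 27.7 ± 9.51 FPKM in cKO and 26.6 ± 8.15 FPKM in WT hearts with T3, 115.7 ± 16.0 FPKM in cKO and 154.1 ± 19.6 FPKM in WT hearts on PTU, and 92.0 ± 2.28 FPKM in cKO and 86.0 ± 16.7 FPKM in WT hearts on chow. Between T3 and PTU its log2 fold change was -2.08 in cKO (SE 0.247, adjusted p = 7.44e-06) and -2.53 in WT hearts (SE 0.247, adjusted p = 1.42e-06). PTU against chow was 0.85 in WT hearts (SE 0.247, adjusted p = 0.0283) and 0.32 in cKO hearts (adjusted p = 0.413). The WT call of Rrad on PTU ended without WT PTU replicate 1 (adjusted p = 0.101) or 3 (0.0664), without WT chow replicate 3 (0.116) and without the atrial-highest libraries (0.0922). Ahnak, a giant scaffold protein that binds the beta subunit, fell by 1.36 with T3 against PTU in WT hearts (adjusted p = 2.16e-06), and Fgf13, an intracellular channel modulator, fell by 0.75 (adjusted p = 0.00825). The Fgf13 call ended without the atrial-highest libraries (adjusted p = 0.0705). In cKO hearts Ahnak changed by -1.51 for T3 against PTU (adjusted p = 6.75e-07). Fgf13 was not called there, at -0.29 (adjusted p = 0.259). Adrb1, a beta-adrenergic receptor gene whose signal raises the L-type current, was lower on PTU than on chow in WT hearts, with a log2 fold change of -0.39 (adjusted p = 0.0443). That call ended under 7 of 13 alternatives, among them without the atrial-highest libraries (adjusted p = 0.139) and without WT PTU replicate 1 (0.113) or 3 (0.168) or WT chow replicate 1 (0.198) or 2 (0.0684). In cKO hearts the change of Adrb1 on PTU was -0.68 (adjusted p = 0.00248). For T3 against PTU it rose by 0.95 in cKO (adjusted p = 2.05e-05) and by 0.54 in WT hearts (0.00308). Of these calls, the cKO one on PTU (0.0518) and the WT one with T3 (0.0694) ended without the atrial-highest libraries.

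Partners of the channel at the dyad, where it faces the calcium store, formed a list of 16, all tested. For T3 against PTU, 8 rose and 2 fell in cKO hearts, and 5 rose and 2 fell in WT hearts, beside the same 46.7% and 44.1% over all tested genes. For PTU against chow, 1 rose and 5 fell in cKO hearts, and 1 rose and 2 fell in WT hearts, beside 16.0% and 16.8%. Srl, the store's calcium-binding protein sarcalumenin, rose with T3 over PTU by 1.66 in WT hearts (SE 0.0909, adjusted p = 2.70e-09) and fell by 0.78 on PTU against chow (adjusted p = 4.72e-05). Slc8a1, the sodium-calcium exchanger, rose on PTU over chow by 0.74 in WT hearts (SE 0.140, adjusted p = 0.00208). Leaving out the atrial-highest libraries ended this WT call of Slc8a1 (adjusted p = 0.0887). In cKO hearts Slc8a1 rose on PTU by 0.76 (adjusted p = 0.00209), a call kept under all 13 alternatives. For T3 against PTU its change was -0.91 in cKO (adjusted p = 7.18e-05) and -0.86 in WT hearts (0.000144), also kept under all 13. Pln, the inhibitor of the store's calcium pump, fell by 0.97 with T3 against PTU in WT hearts (SE 0.193, adjusted p = 0.000779). In cKO hearts Pln changed by -0.49 (adjusted p = 0.0487), a call that ended under 7 of 13 alternatives. The median log2 change of the list for T3 against PTU was 0.28 in cKO and 0.23 in WT hearts.

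Markers of other cell types were counted for T3 against PTU, where 46.7% of all tested genes were called in cKO and 44.1% in WT hearts. Of 5 macrophage markers, 3 rose in cKO and 4 in WT hearts for T3 against PTU, and their summed level was 147.9 to 177 FPKM in cKO and 150.8 to 206 FPKM in WT hearts with T3, against 57.3 to 148.6 FPKM in cKO and 50.4 to 79.6 FPKM in WT hearts on PTU. Of 7 ventricular markers, 3 rose and 1 fell in cKO hearts, and 1 rose and 4 fell in WT hearts for T3 against PTU. Irx4 fell in both genotypes, and Myh6, whose response to thyroid hormone is well known, rose in both. Of 6 pacemaker and conduction markers 3 were tested, and Hcn4 rose in both genotypes, while Isl1 never exceeded 0.0693 FPKM. Of 6 vascular smooth muscle markers 2 were called in each genotype, of 5 fibroblast markers 1 in cKO and 0 in WT hearts, of 5 endothelial markers 1 in each, of 4 pericyte markers 1 in each, and of 4 tested neuron and glia markers 2 in cKO and 1 in WT hearts. The part of these markers in the subunit results was not tested.

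The genes whose pattern over libraries was most like each member were found by Pearson's r of log2(FPKM + 1) among 12582 genes. The libraries fall into treatment clusters and are not independent points for r. Each r was picked as among the highest over the 12582 genes, which favours high values. For Cacna1c over 18 libraries they were Dsp (r = 0.989) and Numa1 (0.982), and for Cacna2d1 over 14 libraries Dmpk (0.994), Gpd2 (0.993) and Tmem41b (0.991). For Cacna1h they were Decr2 (0.849), Aplp1 (0.806) and Fndc4 (0.804), and for Cacna1g Clec2d (0.844), Fbln1 (0.828) and Gm9958 (0.820). Cacna1d was most like Tmem181b-ps (0.864), Sphk1 (0.857) and Vasn (0.832). Cacnb3 had Dynll1 (0.881), Mgat2 (0.849) and Selm (0.844), and Cacnb2, not called in any comparison, had the lowest values, with Idua (0.743), Cacul1 (0.733) and Ttc7 (0.715).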

How the data were processed

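RNA was measured in 18 mouse heart libraries. The authors deposited FPKM values per gene. Bowtie2, Cufflinks and build mm10 are listed, without roles or versions, per the submitters' processing notes. A further 6 tables deposited by the authors compare pairs of groups, with group FPKM values, a log2 fold change, p-values, q-values and a test statistic (a score), per the file headers. From these, group values and q-values were read, and the log2 and score columns were not used. Read totals cannot be had from FPKM, so depth is unknown and counting intervals are not given. FAIL cells were treated as missing. The TruSeq version 2 libraries, per the labels' protocols, do not mark strand, so overlapping genes cannot be told apart.

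Genes reaching 1 FPKM in 3 or more libraries were analysed as log2(FPKM + 1) with limma 3.58.1 in R 4.3.3. The model had 6 group means, a trended prior and robust estimation, with Benjamini-Hochberg adjustment over all tested genes in each of 12 comparisons. The adjusted p of every gene comes from this fit unless an alternative is named, and the fit was tested on simulated data. With normally distributed noise, it called 55.1% to 60.1% of 1.5-fold and 87.0% to 89.1% of 2-fold changes in the pairwise comparisons simulated. For the T3 response by genotype it called 27.5% of 1.5-fold and 66.5% of 2-fold changes, so smaller differences could be missed. At 1.25-fold, recovery was only 12.1% to 14.8% in the pairwise comparisons and 1.94% for the T3 response by genotype. The Benjamini-Hochberg cut-off depends on how many genes change. Recovery in the data may therefore differ, and may be lower where few genes change, as between genotypes. For Cacna2d1 the fit used the 14 numeric libraries. Errors are the SD of FPKM or the SE of log2 changes.

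Named genes are the members, Med13, the other family genes that passed the filter, up to 4 called channel regulators and up to 2 called dyad partners with the largest changes in WT for PTU against chow and for T3 against PTU, 3 pattern neighbours a member, and cell type markers. Some genes that this rule names are not reported here. Irx4, Myh6, Hcn4 and Isl1 were picked from the marker lists after their values were seen. The members and lists were chosen with earlier results of these data known. Positions are from GENCODE M21 on GRCm38, which is mm10, and promoters from RefSeq on GRCm38.p6. Alternatives were a pseudocount of 0.1, no filter, median-of-ratios scaling, a constant prior, library weights, a fit of the compared groups alone, and leaving out libraries.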

Additional observations from a re-analysis of the deposited data

How the results depend on the processing

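Of 13 member results called, 8 kept their call and direction under all 13 alternatives run for each, and 0 changed direction. Of 54 not called, 53 stayed so, the exception being Cacna1h for T3 against PTU in cKO hearts. The number of members called for PTU against chow in cKO hearts was 1, became 0 without the atrial-highest libraries, and lay between 0 and 1 on leaving out single libraries. For PTU plus T3 against chow in WT hearts it was 3, became 1 without the atrial-highest libraries and 1 in a fit of the compared groups alone, and lay between 1 and 2 on leaving out single libraries. In cKO hearts it was 2, became 1 without the atrial-highest libraries, and lay between 1 and 2 on leaving out single libraries. Other counts of members kept their value within 1.5 times. The cause of each lost call was not tested. Of 35 called results of 13 other named genes, 24 kept their call under all alternatives, and 0 changed direction.

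Over all genes, leaving out the atrial-highest libraries gave 517 calls in place of 2017 for PTU against chow in cKO and 663 in place of 2113 in WT hearts, and 863 in place of 2630 for PTU plus T3 against chow in cKO and 722 in place of 1849 in WT hearts. These fits have 12 libraries. Library weights gave 3441 calls for PTU against chow in WT hearts. A fit of the compared groups alone gave 992 calls for PTU against chow in cKO and 857 for PTU plus T3 against chow in WT hearts. Single libraries left out gave 954 to 1942 calls for PTU against chow in cKO and 1347 to 1790 in WT hearts, and 1629 to 2172 for PTU plus T3 against chow in cKO and 950 to 1755 in WT hearts. For genotype and for the response by genotype, calls of 0 became at most 4 under any alternative.

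No paired analysis was possible because the labels give the libraries no replicate numbers shared between groups. With 3 libraries a group and no read totals, little can be seen of genes near 1 FPKM, Cacna1d among them.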
